A study of Mus musculus with 24 samples.

Results

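Lymphotoxin and the chemokines that organise lymphoid tissue were followed through 7 genes: the lymphotoxin ligands Ltb and Lta, their shared receptor Ltbr, the chemokine Cxcl13 with its receptor Cxcr5, and the chemokine Ccl19 with its receptor Ccr7. The genes were chosen by symbol, for their known function and not for a measured value, although earlier results of these data were known. All 7 were found among the 750 genes measured. The measurements came from 24 subcutaneous tumours of CT26, a mouse colon carcinoma line, grown in immunocompetent BALB/c mice and counted on a NanoString panel of immune genes.

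The tumours formed 4 groups of 6. In the first pair of groups the cells had been grown for 40 weeks with 0.5 uM NP1867, an inhibitor of the mismatch repair protein PMS2, and the mice then received the anti-PD-1 antibody RMP1-14 or the isotype control antibody 2A3. In the second pair the cells had been grown for the same time with the vehicle DMSO, and the mice received the same antibodies. Both antibodies were rat IgG2a, given at 5 mg/kg for 4 doses, and tumours were taken on day 19, 24 h after the last dose. All mice therefore carried cells kept for long in culture, and all received an antibody. The tumours measured were picked for a volume near the mean of their group, so the spread reported is that of such tumours only.

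Lymphotoxin is a cytokine of the tumour necrosis factor family. The LTA and LTB proteins form a complex on the surface of lymphocytes that binds the LTBR receptor on stromal and myeloid cells, whereas LTA alone is secreted and binds the TNF receptors. In lymph nodes and spleen, signalling through LTBR maintains stromal production of CXCL13, which draws CXCR5-bearing B cells and follicular helper T cells into follicles, and of CCL19, which draws CCR7-bearing naive T cells and mature dendritic cells into the T cell zone. The same genes are used to describe tertiary lymphoid structures, the lymphoid aggregates that can form in tumours.

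Ltb and Lta lie close together on chromosome 17 with Tnf between them, Ltbr on chromosome 6, Cxcl13 on 5, Cxcr5 on 9, Ccl19 on 4 and Ccr7 on 11. The 250 bases before the gene start of both ligands and of their receptor are shown because Ltb was the member with the clearest response, Lta is its neighbour and partner, and Ltbr was the member with the smallest difference between anti-PD-1 and isotype tumours on the deposited scale. They come from RefSeq on GRCm38.p6 and are written 5′ to 3′ on the strand of the gene: chr17:35194257-35194506, plus strand, for Ltb, chr17:35205352-35205601, minus strand, for Lta, and chr6:125313886-125314135, minus strand, for Ltbr. Capitals mark the match to the NF-kB consensus, the site bound by the transcription factors downstream of TNF family receptors.
Ltb: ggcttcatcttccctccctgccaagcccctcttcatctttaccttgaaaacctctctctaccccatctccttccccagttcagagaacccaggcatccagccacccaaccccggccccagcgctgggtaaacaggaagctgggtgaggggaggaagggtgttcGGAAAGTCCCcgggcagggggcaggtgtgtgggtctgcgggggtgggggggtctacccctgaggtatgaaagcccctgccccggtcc
Lta: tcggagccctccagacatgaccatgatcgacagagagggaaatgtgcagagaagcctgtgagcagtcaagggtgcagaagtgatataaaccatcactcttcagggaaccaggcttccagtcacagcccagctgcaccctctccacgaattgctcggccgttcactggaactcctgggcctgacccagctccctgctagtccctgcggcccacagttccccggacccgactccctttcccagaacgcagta
Ltbr: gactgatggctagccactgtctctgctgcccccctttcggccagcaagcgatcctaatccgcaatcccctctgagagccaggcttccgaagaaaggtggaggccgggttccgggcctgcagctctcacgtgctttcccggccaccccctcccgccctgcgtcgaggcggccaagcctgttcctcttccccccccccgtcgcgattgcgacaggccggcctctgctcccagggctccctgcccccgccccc

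The consensus, of 10 bases, was searched on both strands of windows of 300 bases, reaching 50 bases past each gene start, which were at hand for 5 of the 7 genes and not for Cxcr5 and Ccr7. Only the Ltb window held a match, on the reverse strand and starting 87 bases before the gene start, and those of Lta, Ltbr, Cxcl13 and Ccl19 held 0. Among all promoters, 1480 of 32851 windows, or 4.51%, held one. A match describes the letters of the window and no binding was measured.

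Values are given as deposited, on a log2 scale, with the number of counted probe molecules where it is small. A total of 62699 to 687032 counts stood behind each tumour, and 4 tumours had fewer than 200000, all of them DMSO tumours: numbers 11 and 37 under anti-PD-1 and numbers 6 and 23 under isotype. DMSO isotype tumour 23 was the shallowest of all, and within its group it was the highest for 6 of the genes and the lowest for Ltbr. Of 8 listed carcinoma markers 4 were on the panel and 3 were tested. Epcam, an epithelial adhesion molecule, was below the level tested in these tumours. None of the 3 passed between anti-PD-1 and isotype in NP1867 tumours, with a list median of 0.16. Ltb, Ltbr, Cxcl13 and Ccr7 were among the 600 of 750 genes tested, those whose mean reached 4.32, the log2 of 20. Lta, Cxcr5 and Ccl19 had lower means, and their differences come from a fit over all 750 genes. Their low counts were not set against a background level, so their detection was not tested. The levels in each tumour are plotted by gene.

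**Figure D1:**
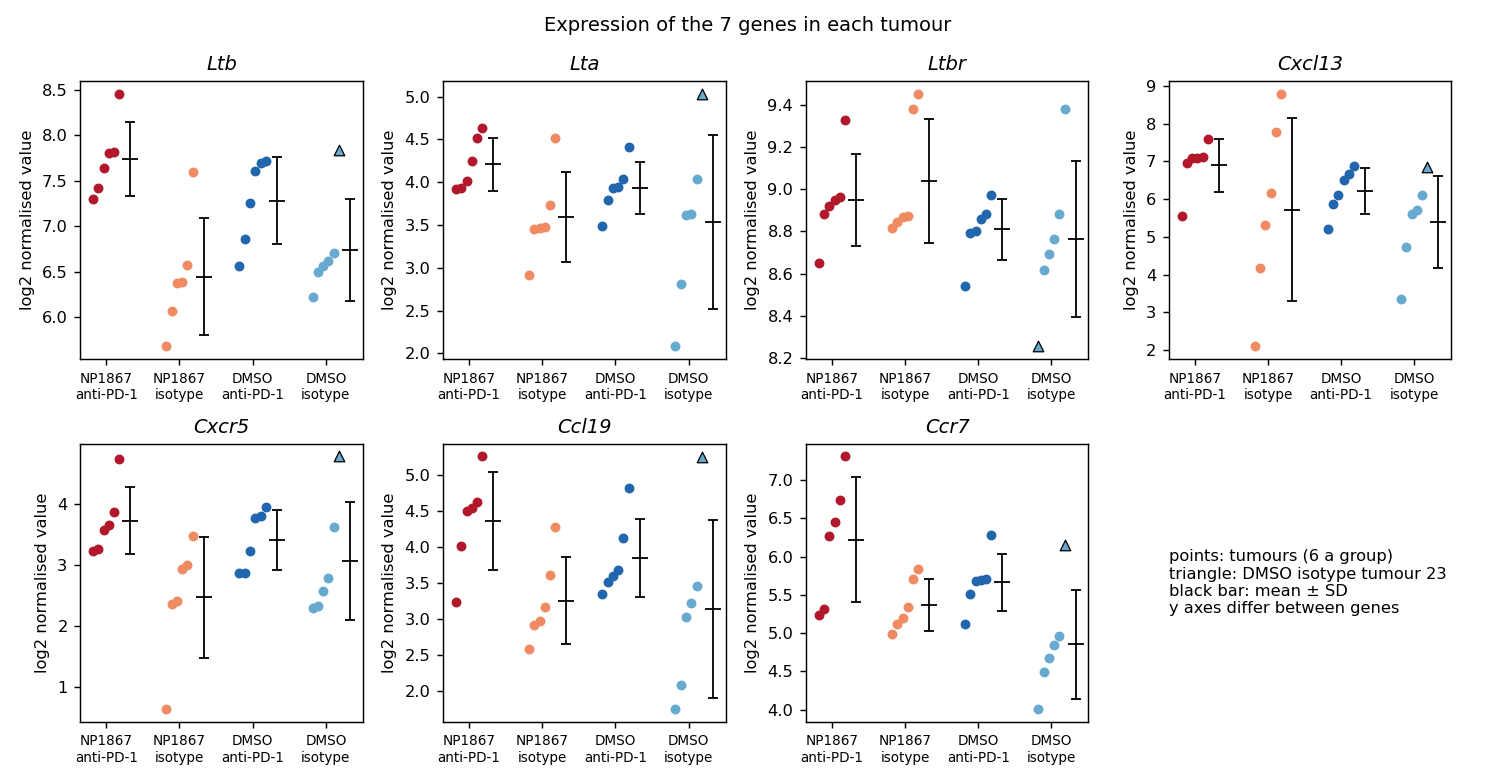
Deposited log2 normalised value (y axis, own scale for each gene) of the 7 genes in each of the 24 tumours, by group (x axis). Points are tumours, the triangle is DMSO isotype tumour 23, and the black bar is the mean ± SD of 6 tumours. The 6 NP1867 anti-PD-1 tumours all lie above the mean of the NP1867 isotype tumours for Ltb, Lta and Cxcr5. Over the panel, 462 of the 600 genes tested had a higher mean in that comparison, which is a looser measure. The share of genes with all 6 tumours above is not given.

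The first question was how the genes differed between anti-PD-1 and isotype tumours in mice bearing NP1867-cultured cells. Ltb, which anchors lymphotoxin to the cell surface, was 2.45-fold higher under anti-PD-1 and was the 1 member of the 4 tested that passed the threshold. Ltbr, its receptor, differed by -0.09 on the log2 scale. The other 5 genes had higher means under anti-PD-1 without passing, of which Lta turned to -0.16 after quantile normalisation. A higher mean was the rule on the panel too, in 462 of the 600 genes tested. Over the panel, 12.3% of the tested genes passed in this comparison and 12.0% passed in the higher direction. That split depended on the scaling: 72 genes passed as higher and 2 as lower on the deposited values, 38 and 40 after each tumour was centred on its median, and 23 and 32 after quantile normalisation. Ltb was called as higher under all 3.

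Ltb ran from 7.30 through a median of 7.72 to 8.46 in NP1867 anti-PD-1 tumours, on 125 to 326 counts. In NP1867 isotype tumours it ran from 5.68 through 6.38 to 7.59, on 43 to 169 counts. All 6 anti-PD-1 tumours lay above the isotype mean, and 4 of them lay above every isotype tumour; the overlap came from isotype tumour 47, at 7.59, while the next isotype tumour was at 6.58. The log2 fold change was 1.29 (SE 0.29, 95% interval 0.69 to 1.90, adjusted p = 0.012). The share of panel genes with such a separation of tumours is not given, so these counts are descriptions only, here and below. Fewer cells of a type and less RNA per cell cannot be told apart in whole tumours, here or for any gene that follows.

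Markers of T cells, the main lymphocytes that carry lymphotoxin beside B cells, moved in the same direction. Of 14 listed markers 13 were on the panel and 10 were tested, of which 5 rose under anti-PD-1 in NP1867 tumours, among them Cd8a, Cd3d, Cd3g and Cd3e. These 4 still rose after centring, and Cd3d and Cd3g did after quantile normalisation. The summed level of the 13 ran from 9.56 to 10.45 in NP1867 anti-PD-1 tumours, against 8.34 to 9.79 in NP1867 isotype tumours, on the log2 scale. With the mean of the tested T cell markers as a covariate the Ltb difference was 0.50 (adjusted p = 0.69), and no gene of the panel passed in that fit. With Ptprc, the pan-leukocyte gene, as the covariate it was 0.92 (adjusted p = 0.036).

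Lta, the soluble partner, had 11 to 31 counts in NP1867 anti-PD-1 tumours and 7 to 20 in NP1867 isotype tumours. Its log2 values ran from 3.92 through 4.13 to 4.63 under anti-PD-1, against 2.92, 3.47 and 4.51 (lowest, median, highest) under isotype. Each anti-PD-1 tumour was above the isotype mean, but only 1 was above the highest isotype tumour, which was again tumour 47. The log2 difference was 0.62 (SE 0.37, adjusted p = 0.21), 0.27 after centring and -0.16 after quantile normalisation.

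Ltbr, the receptor on stromal and myeloid cells, ran from 8.65 through 8.93 to 9.33 in NP1867 anti-PD-1 tumours and from 8.81 through 8.87 to 9.45 in NP1867 isotype tumours. The groups overlapped over nearly their whole range. The log2 difference was -0.09 (SE 0.16, 95% interval -0.43 to 0.25, adjusted p = 0.68), so a rise as large as that of Ltb lay outside its interval. It was -0.43 after centring (adjusted p = 0.067) and -0.34 after quantile normalisation (adjusted p = 0.083).

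Cxcl13, the follicular chemokine, ran from 5.54 through 7.09 to 7.59 in NP1867 anti-PD-1 tumours, with 5 of the 6 between 6.96 and 7.59. In NP1867 isotype tumours it ran from 2.09 (5 counts) through 5.74 to 8.80 (389 counts), the widest spread of any member in any group (SD 2.43 against 0.70 under anti-PD-1). The isotype group thus held both the lowest and the highest tumour of all 24. The difference of the means was 1.17 (SE 0.76, adjusted p = 0.25); without isotype tumour 47, the highest, it was 1.79 (adjusted p = 0.049), and without isotype tumour 57, the lowest, it was 0.45 (adjusted p = 0.65). After quantile normalisation it was 0.57 (adjusted p = 0.52), and with array weights, which weight tumours by their scatter over all genes, 1.42 (adjusted p = 0.041).

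Cxcr5, its receptor on B cells and follicular helper T cells, had 7 to 22 counts in NP1867 anti-PD-1 tumours and 1 to 11 in NP1867 isotype tumours. Its log2 values ran from 3.23 through 3.61 to 4.72 under anti-PD-1, against 0.64, 2.66 and 3.47 under isotype, where the lowest tumour rested on a single molecule. All 6 anti-PD-1 tumours were above the isotype mean and 4 were above every isotype tumour. The log2 difference was 1.25 (SE 0.46, adjusted p = 0.078), and it passed in 5 of 35 other settings, among them the one without the 4 shallow DMSO tumours (adjusted p = 0.025), which changed the fit's spread and not these values. It was 0.91 after centring (adjusted p = 0.21), 0.30 after quantile normalisation (adjusted p = 0.46) and 0.33 with the T cell covariate.

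Ccl19, the T cell zone chemokine, had 15 to 32 counts in NP1867 anti-PD-1 tumours and 5 to 17 in NP1867 isotype tumours. On the log2 scale it ran from 3.23 through 4.53 to 5.26 under anti-PD-1, against 2.58, 3.07 and 4.28 under isotype. Of the 6 anti-PD-1 tumours, 5 were above the isotype mean and 4 above every isotype tumour. The log2 difference was 1.11 (SE 0.47, adjusted p = 0.11); without the 4 shallow DMSO tumours the adjusted p was 0.041 for the same difference, 1 of 5 settings of 35 in which it passed. It was 0.77 after centring (adjusted p = 0.25), 0.36 after quantile normalisation (adjusted p = 0.47) and -0.16 with the T cell covariate.

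Ccr7, the receptor that guides naive T cells and mature dendritic cells, ran from 5.23 through 6.36 to 7.31 in NP1867 anti-PD-1 tumours and from 4.99 through 5.27 to 5.84 in NP1867 isotype tumours. The anti-PD-1 tumours fell into 4 above every isotype tumour and 2, numbers 48 and 67, below the isotype mean. The log2 difference was 0.85 (SE 0.34, adjusted p = 0.083). It was 0.51 after centring (adjusted p = 0.21), 0.24 after quantile normalisation (adjusted p = 0.45) and -0.019 with the T cell covariate. It passed in 5 of 36 other settings: with array weights (0.71, adjusted p = 0.036), without anti-PD-1 tumour 48 (1.05, adjusted p = 0.036) or 67 (1.04, adjusted p = 0.048), without isotype tumour 47 (0.95, adjusted p = 0.043) and without DMSO isotype tumour 23 (0.85, adjusted p = 0.043).

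The same comparison in tumours of DMSO-cultured cells gave no call among the members (1 of the 4 tested, Ccr7, had an unadjusted p under 0.05), and 0 of 600 genes, 0.0%, passed over the panel with limma (85 had an unadjusted p under 0.05; limma-voom on the counts also called 0). Every member had a higher mean under anti-PD-1 than under isotype, as did 438 of the 600 genes tested. Ltbr turned to -0.20 after centring and -0.11 after quantile normalisation. With array weights 2 of the 4 tested members passed, Ltb at 1.004 (adjusted p = 0.0011) and Ccr7 at 1.16 (adjusted p = 0.0017), and 273 of 600 genes passed over the panel; in the fit over all 750 genes Lta (0.87, adjusted p = 0.011), Cxcr5 (0.83, adjusted p = 0.034) and Ccl19 (1.31, adjusted p = 0.0053) passed with them as well.

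Ltb ran from 6.56 through 7.43 to 7.72 in DMSO anti-PD-1 tumours, against 6.22, 6.59 and 7.84 in DMSO isotype tumours. Isotype tumour 23, at 7.84 on 42 counts, was above every anti-PD-1 tumour, while the other 5 isotype tumours lay between 6.22 and 6.71. The log2 difference was 0.54 (SE 0.29, adjusted p = 0.37), and 0.76 (adjusted p = 0.088) without tumour 23, 0.29 after centring and 0.19 after quantile normalisation.

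Ccr7 ran from 5.13 through 5.69 to 6.28 in DMSO anti-PD-1 tumours and from 4.01 through 4.76 to 6.15 in DMSO isotype tumours, where the highest value, tumour 23, stood for 13 counts. All 6 anti-PD-1 tumours were above the isotype mean. The difference, 0.81 (SE 0.34, adjusted p = 0.31), was close to that in NP1867 tumours, and it became 1.07 (adjusted p = 0.071) without tumour 23.

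The remaining members overlapped widely in DMSO tumours. Lta, the ligand partner, had 6 to 21 counts under anti-PD-1 and 4 to 22 under isotype (log2 difference 0.40, SE 0.37, adjusted p = 0.64), and Ltbr differed by 0.04 (SE 0.16, adjusted p = 0.90). Cxcl13 ran from 5.20 through 6.31 to 6.89 under anti-PD-1, against 3.35, 5.65 and 6.84 under isotype (0.82, SE 0.76, adjusted p = 0.57). Cxcr5, at 6 to 11 counts under anti-PD-1 and 3 to 10 under isotype, differed by 0.35 (SE 0.46, adjusted p = 0.72). For Ccl19, at 5 to 39 counts under anti-PD-1 and 2 to 16 under isotype, all 6 anti-PD-1 tumours were above the isotype mean, and the difference was 0.71 (SE 0.47, adjusted p = 0.53). As for Ltb, isotype tumour 23 was the highest of its group for each of these genes but Ltbr. Without it the differences were 0.70 for Lta, 0.69 for Cxcr5, 1.14 for Ccl19 and 1.11 for Cxcl13 (adjusted p = 0.14, 0.23, 0.082 and 0.31). Leaving out another isotype tumour took Lta down to 0.11 (tumour 59), Cxcl13 to 0.41 (tumour 59), Cxcr5 to 0.19 (tumour 64) and Ccl19 to 0.44 (tumour 55).

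**Figure D2:**
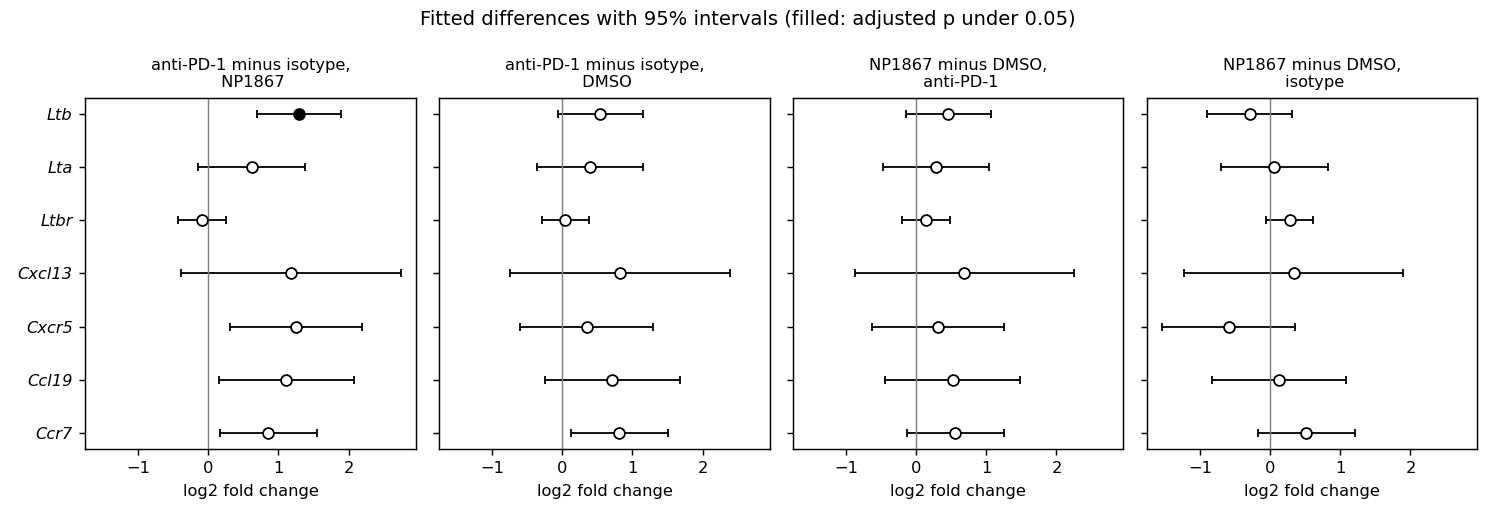
Fitted log2 fold change (x axis) of each gene (rows) in 4 comparisons, with 95% intervals from limma; filled points passed the adjusted p threshold of 0.05. The 1 filled point is Ltb, anti-PD-1 minus isotype in NP1867 tumours, at 1.29.

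Whether the response to anti-PD-1 differed between the cultures was tested as an interaction. No member passed or had an unadjusted p under 0.05, and 0 of 600 genes, 0.0%, passed over the panel (11 had an unadjusted p under 0.05; limma-voom called 0). For Ltb the NP1867 response exceeded the DMSO response by 0.75 (SE 0.42, 95% interval -0.11 to 1.61, adjusted p = 0.995). For Cxcr5 the excess was 0.90 (interval -0.44 to 2.24), and for Ccr7 it was 0.04 (interval -0.94 to 1.02). With array weights the excess was 0.20 for Ltb and 0.087 for Cxcr5, and without the 4 shallow tumours it was 0.32 for Ltb. The call of Ltb in NP1867 tumours is therefore not shown to be particular to them.

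Averaged over both cultures, with 12 anti-PD-1 against 12 isotype tumours, Ltb and Ccr7 rose, 2 of the 4 members tested. Over the panel 29.3% of genes passed in this contrast and 27.0% passed as higher, with 162 genes higher and 14 lower on the deposited values, 54 and 95 after centring, and 64 and 100 after quantile normalisation. Ltb was higher by 0.92 (SE 0.21, adjusted p = 0.0049) and Ccr7 by 0.83 (SE 0.24, adjusted p = 0.018). The median of all tested genes was itself 0.33 in this comparison, and 0.43 in NP1867 tumours alone.

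Centring each tumour on its median took the averaged panel median to 0.04. Ltb then remained called at 0.62 (adjusted p = 0.0071), Ccr7 missed the threshold at 0.54 (adjusted p = 0.052), and Ltbr, at -0.02 (SE 0.12, adjusted p = 0.88) on the deposited scale, passed as lower at -0.32 (adjusted p = 0.037). With the T cell markers as a covariate neither Ltb nor Ccr7 passed: Ltb was at 0.32 (adjusted p = 0.43) and Ccr7 at 0.18 (adjusted p = 0.74). Ccr7 also missed the threshold after quantile normalisation (0.37, adjusted p = 0.069) and with Ptprc as a covariate (0.59, adjusted p = 0.11).

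Of the others, Cxcl13 averaged 0.997 higher (SE 0.54, adjusted p = 0.15), or 1.30 (adjusted p = 0.034) without NP1867 isotype tumour 47 and 0.63 (adjusted p = 0.27) without NP1867 isotype tumour 57, Lta 0.51 (SE 0.26, adjusted p = 0.14) and Cxcr5 0.80 (SE 0.33, adjusted p = 0.073). Ccl19, at 0.91 (SE 0.33), had an adjusted p of 0.046 in the fit over all 750 genes, in which 22.1% of genes passed as higher. That call was kept in 9 of 34 other settings. Without DMSO isotype tumour 23 the averaged values were 0.66 for Lta (adjusted p = 0.018), 0.97 for Cxcr5 (adjusted p = 0.010) and 1.13 for Ccl19 (adjusted p = 0.0033). The averaged differences under the main alternatives are plotted by member.

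**Figure D3:**
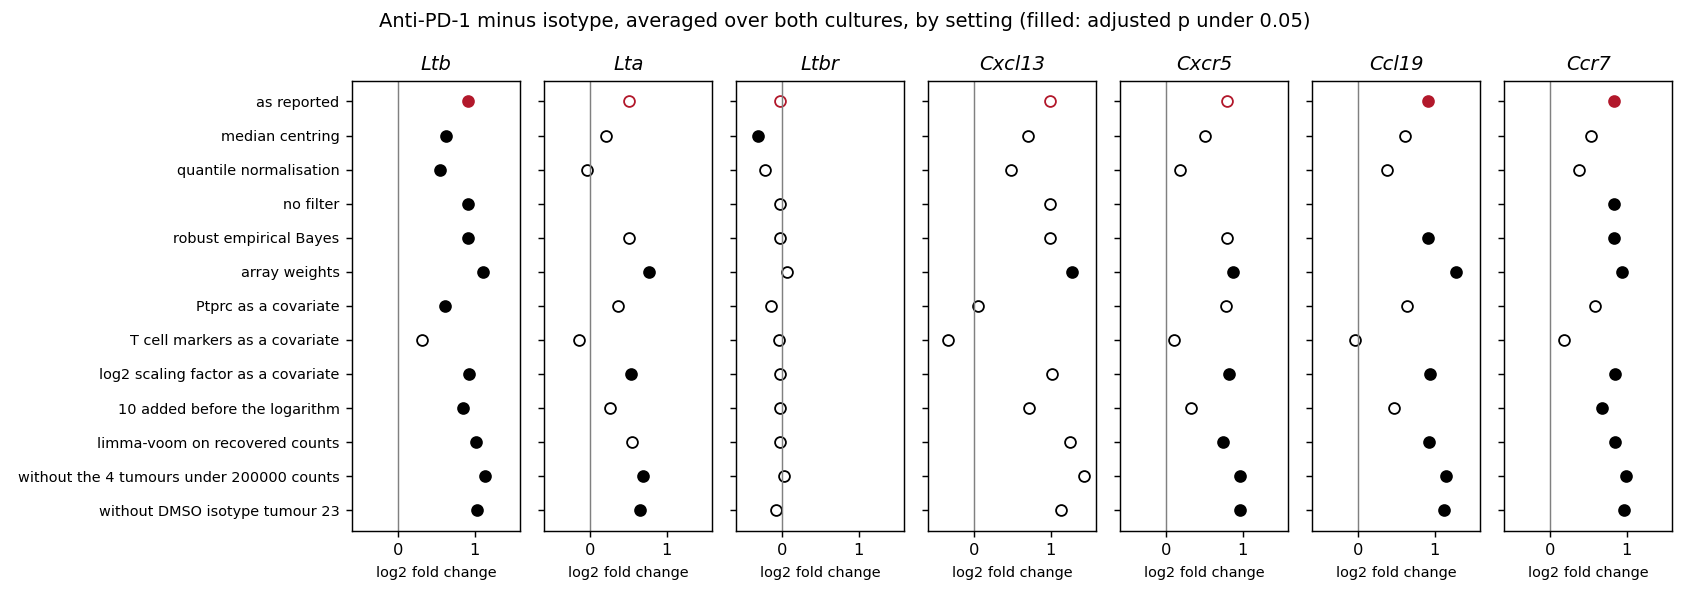
Log2 fold change of anti-PD-1 against isotype averaged over both cultures (x axis) for each gene, under the reported setting (red) and 12 alternatives (rows); filled points have an adjusted p under 0.05, and a missing point means that the gene was not in that fit or that it repeats the reported one. Ltb is unfilled only with the T cell markers as a covariate.

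The culture itself was compared within each antibody. Under isotype no member passed between NP1867 and DMSO tumours, and 1 of 600 genes, 0.167%, did: Spn, lower in NP1867 tumours, named here because the count is 1. No gene passed in that comparison after centring, after quantile normalisation or in a fit of these groups alone. Under anti-PD-1 no member passed and 0 of 600 genes, 0.0%, did (69 had an unadjusted p under 0.05; limma-voom called 0). Averaged over antibodies 12 genes, 2.0%, passed, none of them a member; 7 were higher and 5 lower in NP1867 tumours on the deposited values, 5 and 10 after centring, and 5 and 11 after quantile normalisation. None of the 4 tested members had an unadjusted p under 0.05 within either antibody, and 1 had in the average.

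Under isotype, Ltb differed by -0.29 between NP1867 and DMSO tumours (SE 0.29, adjusted p = 0.78) and Cxcr5 by -0.59 (adjusted p = 0.69). Both Ltbr (0.27, SE 0.16, adjusted p = 0.64) and Ccr7 (0.51, SE 0.34, adjusted p = 0.68) had all 6 NP1867 tumours above the DMSO mean. Lta, Ccl19 and Cxcl13 differed by 0.06, 0.12 and 0.33, each by less than its standard error. Under anti-PD-1 all 7 differences were positive, from 0.14 for Ltbr to 0.69 for Cxcl13, as were those of 514 of the 600 genes tested; that of Ltbr turned to -0.11 after centring and -0.13 after quantile normalisation.

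Cxcl13 had the largest difference of the members between NP1867 and DMSO tumours under anti-PD-1, at 0.69. Of its 6 NP1867 tumours 5, at 6.96 to 7.59, were above every DMSO tumour. The sixth, tumour 67 at 5.54, lay near the low end of the DMSO range. The difference was smaller than its standard error and did not pass (SE 0.76, adjusted p = 0.62). For Ltb all 6 NP1867 tumours were above the DMSO mean (0.46, SE 0.29, adjusted p = 0.47). Ccr7 averaged over both antibodies was 0.53 higher in NP1867 tumours (SE 0.24, adjusted p = 0.21), and it passed with the T cell markers as a covariate (0.55, adjusted p = 0.036).

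Other genes of the pathway were followed through 5 lists. Beside each count stands the median fold change of the list in NP1867 tumours, where the median of all tested genes was 0.43. Of all tested genes 12.0% rose in NP1867 tumours and 27.0% in the average over both cultures, and a count near these shares is no result about a list. In DMSO tumours none of the genes of the 5 lists passed, nor did any other gene of the panel.

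Among TNF family ligands and receptors of lymphoid tissue, 3 of 15 tested genes rose under anti-PD-1 in NP1867 tumours and none fell, with a list median of 0.61. They were Tnfrsf14, the receptor of the lymphotoxin relative LIGHT (0.79, SE 0.23, adjusted p = 0.025), Cd40, the receptor for T cell help on B cells and dendritic cells (0.94, SE 0.28, adjusted p = 0.033), and Tnf. Tnf, which lies between Ltb and Lta, ran from 6.51 through 6.73 to 7.07 in NP1867 anti-PD-1 tumours, against 5.30, 5.95 and 6.64 in NP1867 isotype tumours, so 1 isotype tumour reached into the anti-PD-1 range. Its log2 difference was 0.80 (SE 0.26, adjusted p = 0.044). The same 3 genes passed in the average over both cultures. After centring or quantile normalisation none of the 15 passed in NP1867 tumours, and Tnfrsf14 still rose in the average.

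NF-kB signalling below the receptor was represented by 12 tested genes of 16 listed, and the kinase Map3k14 was not among them. In NP1867 tumours 1 rose, Rel, the NF-kB subunit used in activated lymphocytes (0.60, SE 0.16, adjusted p = 0.020), and the list median was -0.06. Nfkb2 and Relb, the subunits of the noncanonical pathway that LTBR uses, had differences of -0.15 (adjusted p = 0.35) and 0.33 (adjusted p = 0.15). In the average over both cultures Rel and Ikbke, an NF-kB pathway kinase, passed, at 0.32 and 0.48. These calls were lost after centring and after quantile normalisation. In NP1867 tumours the kinase subunit Chuk then fell under both scalings and the adaptor Traf6 after centring, and in the average 6 of the 12 fell after centring and 4 after quantile normalisation, Nfkb2 and Chuk among them.

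Of 9 other homing chemokines and receptors tested, none passed with limma in NP1867 tumours (list median 0.61), and 4 had an unadjusted p under 0.05. Ccl21a, the other CCR7 ligand, differed by 0.47 (adjusted p = 0.51). In the average over both cultures 2 rose: Cxcr6, a receptor of tissue T cells (1.08, SE 0.30, adjusted p = 0.017), and Cxcl12, a stromal chemokine (1.35, SE 0.45, adjusted p = 0.030). Both still rose after centring and quantile normalisation, and Ccl25, a chemokine of thymus and gut, then fell, in NP1867 tumours too after quantile normalisation.

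Of 11 tested adhesion molecules of lymphocyte entry, 4 rose in NP1867 tumours, with a list median of 0.79. They were Icam1 (0.94, adjusted p = 0.015), the integrin chains Itgb2 (1.01, adjusted p = 0.018) and Itgal (0.95, adjusted p = 0.022), which together form the receptor of ICAM1, and Selplg, the P-selectin ligand (1.02, adjusted p = 0.024). Vcam1, an endothelial and stromal ligand known to be induced through LTBR, had a difference of 0.37 (adjusted p = 0.13). After centring 3 of the 4 still rose in NP1867 tumours, Icam1, Itgal and Selplg, while Cd34 and the integrin chain Itgb1 fell; after quantile normalisation Selplg rose and the same 2 fell.

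Among 9 tested genes of follicular helper T cells and lymphoid tissue inducer cells, 4 rose in NP1867 tumours (list median 0.70). They were Il7r (1.56, SE 0.39), Il21r (1.27, SE 0.33), Pdcd1, the target of the antibody (1.18, SE 0.29), and Icos (1.10, SE 0.31), with adjusted p values of 0.014 to 0.025. All 4 are also expressed by other T cells. After centring Il7r, Il21r and Pdcd1 still passed, and after quantile normalisation Il7r did. Bcl6, the factor that defines follicular helper cells, had a difference of 0.15 (adjusted p = 0.50).

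Cell types that make or answer these signals were followed by markers. No B cell marker of 5 tested passed with limma in NP1867 tumours (list median 0.69), and 1 had an unadjusted p under 0.05. The summed level of the 11 on the panel ran from 8.40 to 9.27 in NP1867 anti-PD-1 tumours and from 7.91 to 8.75 in NP1867 isotype tumours, and from 8.19 to 9.05 in DMSO anti-PD-1 tumours and from 7.82 to 9.76 in DMSO isotype tumours. Cd79a stood at 3 to 25 counts over all 24 tumours and Ms4a1 at 6 to 66, so these defining B cell markers were measured near the low end of the panel. Their part in the Cxcr5 and Ltb values was not tested.

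Dendritic cell markers Irf8 (0.93, adjusted p = 0.011) and Xcr1 (1.08, adjusted p = 0.026) rose in NP1867 tumours, both of the 2 tested, and Irf8 passed after centring and quantile normalisation too. Of 7 tested markers of mature dendritic cells, the CCR7-bearing ones, 2 rose, Cd86 (0.93, adjusted p = 0.022) and Cd40, and none did after centring or quantile normalisation, where Cd80 fell in the average. No marker of follicular dendritic cells (5 tested), stroma (8 tested) or endothelium (8 tested) passed with limma in NP1867 tumours, where 2, 1 and 2 of them had an unadjusted p under 0.05, and these are cells that carry LTBR or make CXCL13 and CCL19. In the average 3 stroma and 2 endothelium markers rose. Those counts stand against 27.0% of all tested genes. After centring Cd34 and Kdr, of endothelium, and Mfge8, of follicular dendritic cells, fell in NP1867 tumours and in the average, and 1 stroma marker, Cxcl12, rose in the average. After quantile normalisation Cd34, Mfge8 and the stroma marker Fn1 fell in both, Kdr fell in the average, and Cxcl12 and Thy1 rose in the average. Of myeloid cells, 0 of 8 tested macrophage and 1 of 4 neutrophil markers rose in NP1867 tumours (12.0% of all tested genes). In the average 3 and 1 rose (27.0% of all tested genes). Of 6 natural killer markers 0 and 2 rose. After centring and after quantile normalisation 1 macrophage marker fell and 1 neutrophil marker rose in both comparisons. After quantile normalisation 2 macrophage markers also rose in the average.

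Members were then set against each other over the 24 tumours after the group means were taken away, so that a difference between groups could not make the relation. Of 21 pairs, 17 had a positive Pearson's r and 11 passed an adjusted p of 0.05 in a permutation test with 100000 permutations within groups. By Spearman's rho 4 of the 21 passed the same test, all among the 11: Ltb with Ccl19, Ltb with Ccr7, Lta with Cxcr5 and Lta with Ccr7. The tumours share the whole measurement, depth and cell content included, and the median r of a member with all tested genes was already 0.27 for Ltbr and 0.41 to 0.43 for Ltb, Cxcl13 and Ccr7. With each tumour centred on its median 5 pairs passed, after quantile normalisation 0, and without the 4 shallow tumours 2.

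Both lymphotoxin ligands went with Ccr7. For Lta with Ccr7, r was 0.73 and Spearman's rho 0.71 (adjusted permutation p = 0.00042 for r and 0.0045 for rho), and r was 0.56 without the 2 tumours farthest from the median of Lta. For Ltb with Ccr7, r was 0.70 and rho 0.69 (adjusted permutation p = 0.0017 and 0.0045), and r was 0.61 without the 2 farthest tumours. These were the 2 pairs that passed without the 4 shallow tumours, with r of 0.63 and 0.65, and both also passed after centring, at 0.63 and 0.56. Within the groups of 6, the r of Ltb with Ccr7 was 0.94 in NP1867 anti-PD-1, 0.70 in NP1867 isotype, 0.46 in DMSO anti-PD-1 and 0.86 in DMSO isotype tumours.

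Ltb with Ccl19 had r of 0.67 and rho of 0.60 (adjusted permutation p = 0.0080 and 0.021), but r fell to 0.43 without the 2 farthest tumours, DMSO isotype 23 and NP1867 isotype 47. The ligand partners Ltb and Lta had r of 0.59 and rho of 0.50 (adjusted permutation p = 0.023 and 0.053). Their r was 0.25 without the same 2 tumours, and 0.52 without the shallow DMSO tumours, which include DMSO isotype 23. In the groups that held neither of the 2 tumours, r was 0.77 (NP1867 anti-PD-1) and -0.16 (DMSO anti-PD-1). How far the relation of Ltb and Lta rested on these 2 tumours was not tested. Ccl19 with its receptor Ccr7 had r of 0.58 and rho of 0.48 (adjusted permutation p = 0.030 and 0.060), and r was 0.49 without the 2 farthest tumours.

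Cxcl13 and its receptor Cxcr5 gave no call, with r of 0.10 and rho of 0.12 (adjusted permutation p = 0.81 and 0.74), and r was 0.017 without the 2 farthest tumours. Ltbr gave no call with its ligands, with r of 0.17 with Ltb (rho 0.18, adjusted permutation p = 0.61 for r) and -0.0021 with Lta (rho 0.017, adjusted permutation p = 0.995 for r); without the 2 farthest tumours r was 0.34 and 0.49. After centring, r between Ltbr and each other member was negative, from -0.53 to -0.35, none of them past the threshold. Centring also took the median r of Ltbr with all tested genes to -0.12. That median was then 0.11 for Ltb, -0.06 for Cxcl13 and 0.16 for Ccr7.

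**Figure D4:**
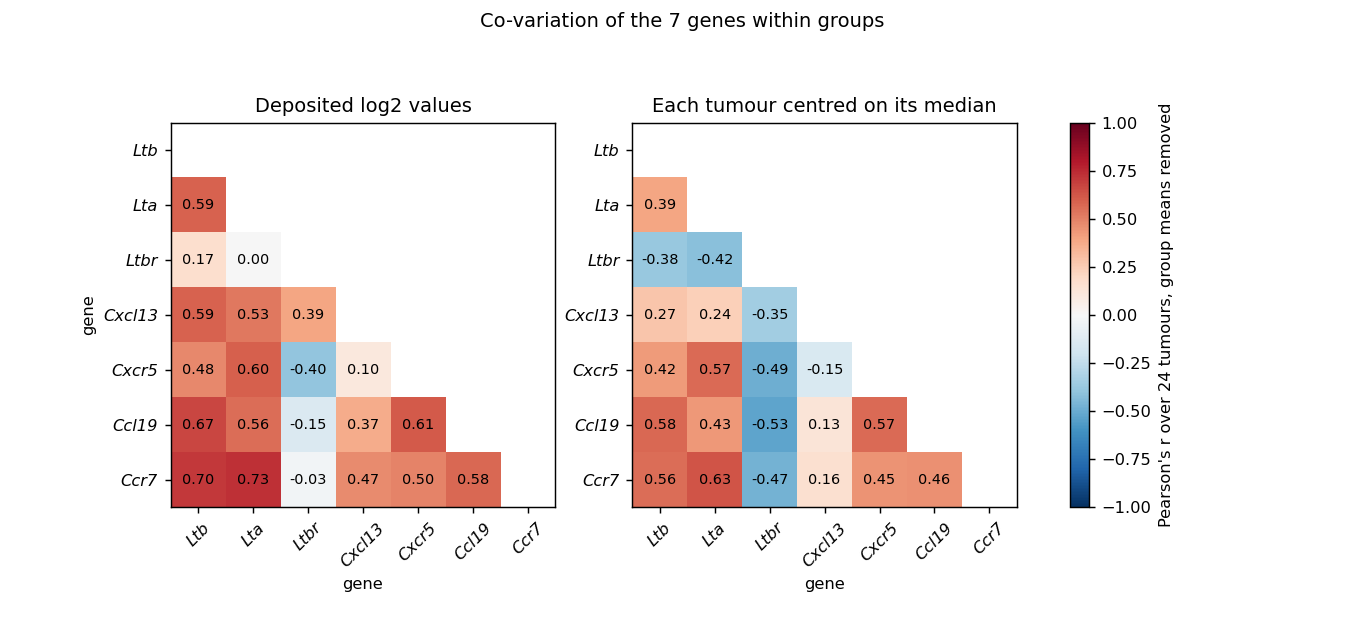
Pearson's r of each pair of the 7 genes over 24 tumours after the group means were removed, on the deposited log2 values (left) and with each tumour centred on its median (right); colour and printed number both give r. The Ltbr row and column run from -0.40 to 0.39 on the left and are all negative on the right. The median r of Ltbr with all tested genes was 0.27 on the deposited values and -0.12 after centring. Ltb and Lta keep r of 0.56 and 0.63 with Ccr7 after centring.

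The genes most like each tested member, by r over the same 24 tumours among the 600 tested genes, are given as a description. For Ccr7 they were Cd4 (0.93), Nlrp3 (0.86) and Cd83 (0.86), the same 3 after centring. For Cxcl13 they were Cxcl9 (0.86), a chemokine induced by interferon-gamma, H2-Ea-ps (0.86) and C6 (0.85), again the same 3 after centring. For Ltb they were Tfeb (0.85), Tnfrsf1a (0.85), which binds soluble LTA, and Il10ra (0.84), and after centring H2-Eb1 came first at 0.74 with Tfeb and Il10ra next. For Ltbr they were Stat6 (0.89) and Psma2 (0.86), and Psma2 and Stat6 were still the first after centring.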

How the data were processed

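RNA was extracted from 3 sections of 10 um per fixed and embedded tumour, and 100 ng went into each hybridisation, per the labels' protocols. The authors deposited 1 table of log2 values for 750 genes in 24 tumours; the normalisation behind it is not given in the sources used here. Every value was a whole count times 1 factor per tumour (0.522 to 5.457; tolerance 0.05 of a count), which gave the counts printed.

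limma 3.58.1 in R 4.3.3 fitted 4 group means to the 600 genes whose mean over tumours reached log2 of 20 (20 residual degrees of freedom, empirical Bayes with a trend), with two-sided p-values adjusted by Benjamini-Hochberg over all genes of a comparison and a threshold of 0.05. Members below the filter were fitted with all 750 genes. SDs are over 6 tumours of separate animals, and standard errors are of the fitted difference. Correlations used 100000 permutations within groups, two-sided, adjusted over 21 pairs. The fit and the correlations were tested on simulated data.

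Members, lists, the rule for named genes and the alternatives were chosen with earlier results of these data known. The rule named all 7 members, up to 4 passing genes of each list by lowest p, and the 3 genes most like each tested member, of which a few genes are not reported here; Ccl21a, Nfkb2, Relb, Vcam1, Bcl6, Spn, Chuk, Traf6, Ccl25, Cd80, Cd34, Kdr, Mfge8, Fn1, Thy1 and Itgb1 were named afterwards. Symbols matched a RefSeq table of GRCm38.p6 for all 7 members and 736 genes, 8 more as synonyms and 6 not. Alternatives were other scalings, filters, covariates, weights, a limma-voom fit of the counts, and leaving out tumours.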

Additional observations from a re-analysis of the deposited data

Results flagged for a closer look

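In 28 combinations of a gene and a group of 6 tumours, 2 had an end tumour standing apart from the other 5 by Dixon's criterion (gap to the next tumour over the group's range, 95% critical value), and chance marks about 1 in 20 such groups. Ltb in DMSO isotype tumour 23 was the highest of its group at 7.84, with the next at 6.71 (0.696 of the range), on 42 counts in the tumour with the fewest counts of all. Cxcl13 in NP1867 anti-PD-1 tumour 67 was the lowest of its group at 5.54, with the next at 6.96 (0.692 of the range), on 34 counts.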

How the results depend on the processing

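Over 37 settings and 39 results of single members, 1270 of 1393 values kept their direction and side of the threshold, 30 lost the call, 36 gained one and 57 changed sign. Many of these settings could not change a given difference, such as leaving out a tumour of a group not compared. The count kept is therefore no measure of robustness. The Ltb rise in NP1867 tumours passed in 36 of 37 settings (0.50 to 1.52), the exception being the T cell covariate. Other filters, a fit of the compared groups alone and leaving out DMSO tumours left the difference at 1.29 by construction. They changed only its spread or the adjustment of its p-value. Counts of 10 or fewer lie behind many Cxcr5, Lta and Ccl19 values, which limits their precision. No paired analysis was possible because the tumours came from separate animals and the labels give no pairing between groups.

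The number of members called in NP1867 tumours was 3 with array weights, 0 with the T cell covariate and 1 to 3 with 1 tumour left out (3 if NP1867 isotype tumour 47 was the one, 2 if it was DMSO isotype tumour 23 or tumour 48 or 67 of the NP1867 anti-PD-1 group). In DMSO tumours it was 2 with array weights. Averaged over cultures it was 1 after quantile normalisation, with a filter at 50 (which removed Ccr7) and with Ptprc, Ltb each time, 0 with the T cell covariate, 2 to 3 with 1 tumour left out, and 2 after centring, where Ltbr took the place of Ccr7. For NP1867 against DMSO averaged over antibodies it was 1 with the T cell covariate. Pairs that co-varied numbered 5 after centring, 0 after quantile normalisation, 2 without the 4 shallow tumours and 0 within each group alone. Within a group only 6 tumours can be permuted, so a pair could hardly pass there and that 0 shows no loss. Between 12 and 19 of the 21 pairs had a positive r within a group. The panel's 74 calls in NP1867 tumours became 267 with array weights, 139 without the 4 shallow tumours, 122 with the scaling factor as a covariate, 16 with Ptprc, 0 with T cell markers and 14 to 198 with 1 tumour left out. The 176 averaged over cultures became 404 with array weights, 318 without the shallow tumours, 52 with Ptprc, 3 with T cell markers and 91 to 308 with 1 left out. The 12 between cultures averaged over antibodies became 70 with array weights, 60 with T cell markers, 27 with the scaling factor and 6 to 26 with 1 left out, the 1 under isotype 13 with array weights and 0 after centring, after quantile normalisation and in a fit of these groups alone, and the 0 in DMSO tumours 273 with array weights.

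Signs changed as follows, in no case with a call. With the T cell covariate the anti-PD-1 difference in NP1867 tumours was -0.24 for Lta, -0.60 for Cxcl13, -0.16 for Ccl19 and -0.019 for Ccr7; in DMSO tumours it was -0.039 for Lta, -0.078 for Cxcl13 and -0.12 for Cxcr5; averaged it was -0.14 for Lta, -0.34 for Cxcl13 and -0.047 for Ccl19; and the Ccr7 interaction was -0.39. With Ptprc, Cxcl13 was -0.019 in NP1867 tumours and -0.083 for NP1867 against DMSO under anti-PD-1, Ltbr -0.050 in DMSO tumours and the Ccr7 interaction -0.087. After quantile normalisation Lta was -0.16 in NP1867 tumours and -0.037 averaged, Ltbr -0.11 in DMSO tumours and -0.13 between cultures under anti-PD-1, Cxcr5 0.026 between cultures under isotype, and the Ccr7 interaction -0.27. After centring Ltbr was -0.20 in DMSO tumours and -0.11 between cultures under anti-PD-1, Lta -0.10 and Ccl19 -0.032 between cultures under isotype, and the Ccr7 interaction -0.051. With array weights Ltbr was 0.0052 in NP1867 tumours and 0.060 averaged, Cxcr5 0.23 between cultures under isotype and the Ccr7 interaction -0.45. With 10 added before the logarithm Lta was -0.020 and Ccl19 -0.021 between cultures under isotype. With limma-voom the Ccr7 interaction was -0.027, and without the 4 shallow tumours it was -0.27 and Ltbr averaged 0.024. With 1 tumour left out, the values crossing 0 ran from -0.058 to 0.17 for Ltbr in DMSO tumours, from -0.075 to 0.038 for Ltbr averaged, from -0.22 to 0.24 for the Ccr7 interaction, and, between cultures under isotype, from -0.23 to 0.36 for Lta, from -0.28 to 1.06 for Cxcl13 and from -0.16 to 0.55 for Ccl19. Beyond what each setting removes by construction, the cause was not tested.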
